A study of Mus musculus with 16 samples.

Results

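The 10 genes described here make up the core of the mammalian circadian clock and its nearest outputs: Arntl, Clock, Per1, Per2, Per3, Cry1, Cry2, Nr1d1, Dbp and Nfil3. They were taken by the gene name that the array files give to each probe, and are 10 of the 34781 gene names on the arrays. All 10 were among the 25408 genes tested, each through its brightest probe. RNA came from primary murine alveolar type II cells of C57BL/6 mice, which make surfactant in the lung alveolus, and was hybridised to 16 one-colour Agilent arrays. The groups were hyperoxia (85% O2) for 24 h, normoxia (21% O2) for 24 h, hyperoxia for 6 h and normoxia for 6 h, with 4 arrays each. The labels do not say whether the arrays of a group came from separate animals or cultures, so p-values measure only the spread between these samples. The hour of day at which cells were started or harvested is not given in the labels.

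The clock is a feedback loop of transcription. ARNTL (also called BMAL1) and CLOCK bind E-box sequences as a pair and switch on the Per and Cry genes, Nr1d1 and Dbp, and the PER and CRY proteins then shut their own activators off. The nuclear receptor NR1D1 (REV-ERB alpha) represses Arntl and Nfil3 through ROR elements, while DBP activates and NFIL3 represses genes that carry a D-box, Per genes among them. In the mouse lung the airway epithelium is known for a strong clock of this kind, and cells in culture run it each on its own phase unless a stimulus sets them together.

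The promoter stretches below show where letters of these elements stand in the members themselves. RefSeq promoter windows of GRCm38.p6, from 250 bases before to 50 after a transcription start, were found for 9 members (13 windows). Each motif was searched on both strands, and no marked matches overlap. The E-box CACGTG stands in 7.15% of all 32817 windows of this length and in those of Cry1 and Per1. The related letters CACGTT, called an E-prime box, stand in 4.69% of all windows and in those of Cry1, Cry2 and Nr1d1. The D-box TTATGTAA stands in 0.935% of all windows and 2 times in that of Per3. The ROR element core, TAGGTCA or TGGGTCA, stands in 6.46% of all windows and in those of Nfil3 and Arntl. The cyclic AMP response element TGACGTCA stands in 1.79% of all windows and in none of the members'. The windows of Dbp and Clock hold none of these letters. Shown is a stretch of 100 bases around the matches for each member with a match upstream of its start, 5′ to 3′ on the strand of the gene, with the matches in capitals (AACGTG and TGACCTA are the reverse complements of CACGTT and TAGGTCA).
Nr1d1 (chr11:98775378-98775477, minus strand): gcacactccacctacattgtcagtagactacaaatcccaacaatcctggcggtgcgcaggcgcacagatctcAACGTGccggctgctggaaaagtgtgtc
Per3 (chr4:151044794-151044893, minus strand): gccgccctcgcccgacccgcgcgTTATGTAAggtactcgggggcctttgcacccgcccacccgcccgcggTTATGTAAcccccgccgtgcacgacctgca
Nfil3 (chr13:52981040-52981139, minus strand): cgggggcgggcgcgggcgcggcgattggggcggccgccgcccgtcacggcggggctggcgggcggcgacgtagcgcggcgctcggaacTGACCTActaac
Cry2 (chr2:92434183-92434282, minus strand): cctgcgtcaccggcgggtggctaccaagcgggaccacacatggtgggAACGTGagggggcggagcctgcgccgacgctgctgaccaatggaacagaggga
Cry1 (chr10:85185072-85185171, minus strand): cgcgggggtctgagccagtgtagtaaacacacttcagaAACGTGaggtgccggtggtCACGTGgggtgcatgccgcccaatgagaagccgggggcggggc
Per1 (chr11:69098736-69098835, plus strand): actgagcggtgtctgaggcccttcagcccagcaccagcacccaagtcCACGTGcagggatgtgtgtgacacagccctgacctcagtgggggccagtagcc
The E-prime box of Nr1d1 begins 28 bases before its start and that of Cry2 166 bases before. In Cry1 the E-prime box begins 79 and the E-box 60 bases before the start, and the E-box of Per1 begins 166 bases before. The D-boxes of Per3 begin 205 and 158 bases before its start. The ROR core of Nfil3 begins 12 bases before the start, and that of Arntl, not shown, lies 30 bases after it.

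Levels are given as log2 signal relative to the 75th percentile of the same array, so 0 is that percentile, and levels of different genes are not compared because each probe binds with its own strength. Depending on the array, 53.6% to 69.0% of probes exceeded background clearly, and the 75th percentile ranged from 556 to 801 intensity units at 24 h and from 899 to 1021 at 6 h. The 24 h arrays shared 1 slide and scan and the 6 h arrays another, which means that effects of time and slide cannot be told apart. Hyperoxia and normoxia arrays occupied different rows of each slide, so the same holds for oxygen and row. Markers of several cell types the samples could hold were called at 24 h, and levels summed over a list, in multiples of the 75th percentile, weigh bright probes most. Of 10 type II cell markers, Slc34a2 was well above background on no array. Among the 9 tested, Abca3 was called higher at 24 h (0.68, log2 fold change, limma) and 4 lower, Lamp3 (-1.03), Sftpb (-0.95), Etv5 (-0.79) and Lpcat1 (-0.28), while Sftpa1 (0.79), Sftpc (0.45), Sftpd (0.45) and Napsa (-0.079) did not pass. The sum over all 10 was 29.3 to 36.4 in hyperoxia and 39.5 to 45.1 in normoxia at 24 h, and 56.2 to 80.4 in hyperoxia and 60.0 to 73.9 in normoxia at 6 h. The sum of 9 fibroblast and smooth muscle markers, all well above background on every array, was 1459.5 to 1559.6 in hyperoxia and 1560.6 to 1795.1 in normoxia at 24 h. By limma 0 of 9 were called, and their median log2 fold change was -0.042. The 2 at an unadjusted p under 0.05 went opposite ways, Col1a2 (-0.31) and Pdgfra (0.57). Sums were higher in hyperoxia for 3 club cell markers (0.979 to 1.17 in hyperoxia and 0.599 to 0.831 in normoxia) and 3 ciliated cell markers (1.33 to 1.39 in hyperoxia and 0.863 to 1.26 in normoxia) at 24 h, where Scgb3a2, Cyp2f2 and Dnah5 were well above background on no array. The macrophage marker Cd68 was 2.03-fold higher at 24 h (limma adjusted p = 1.50e-06), the 1 called of 5. The macrophage sums were 64.6 to 72.2 in hyperoxia and 51.6 to 66.7 in normoxia. They weighed mostly Itgam, not called, at a mean of 6.08 in hyperoxia and 5.82 in normoxia, against 0.49 and -0.53 for Cd68. S100a8 (1.75) was the 1 called of 4 neutrophil markers, well above background on 1 of 4 normoxia arrays. S100a9 averaged -6.20 in hyperoxia and -6.04 in normoxia. Of all genes 15.5% were called higher at 24 h and 12.8% lower. The sum of 6 genes of dividing cells was 5.82 to 8.38 in hyperoxia and 43.6 to 57.4 in normoxia at 24 h, where all 6 were called lower, and 45.5 to 56.4 in hyperoxia and 58.2 to 76.7 in normoxia at 6 h. Other sums differed between the times too. At 6 h club cell sums were 22.7 to 46.1 in hyperoxia and 22.0 to 44.6 in normoxia. Ciliated cell sums were then 1.78 to 2.83 in hyperoxia and 1.62 to 2.83 in normoxia. Macrophage sums at 6 h were 18.8 to 31.3 in hyperoxia and 20.3 to 25.2 in normoxia, with Itgam at a mean of 4.53 and 4.33. From 6 h to 24 h in hyperoxia 2 of the 5 macrophage markers were called higher and 2 lower (25.0% and 27.4% of all genes). In normoxia 1 was higher and 2 lower (20.6% and 23.5% of all genes). Those of fibroblast and smooth muscle markers were 865 to 1140 in hyperoxia and 917 to 1093 in normoxia. The part of these shifts in the clock gene results was not tested, and in a sample of many cells fewer cells of a type and less RNA per cell cannot be told apart.

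After 24 h clock genes had moved both ways. Dbp and Nr1d1 were 2.81-fold and 2.65-fold higher in hyperoxia, and Per3 and Clock rose by less. Nfil3, the repressor at D-boxes, and the repressor gene Cry2 fell. In all 4 of 10 members rose and 2 fell (limma adjusted p under 0.05), against 15.5% of all 25408 genes tested that rose and 12.8% that fell. Hyperoxia and normoxia arrays did not overlap for 6 members, against 33.2% of all genes. The members' median log2 fold change was 0.23, against 0.0051 for all genes. Members were chosen with earlier results of these data known, so the values for all genes give a scale and not a test.

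After 6 h no member passed the same test, where 0.236% of all genes rose and 0.0905% fell. At an unadjusted p under 0.05, which 7.38% of all genes reached, there were 3 members: Nr1d1 at 0.65 ± 0.16 (log2 fold change ± SE, adjusted p = 0.166), Per2 at -0.58 ± 0.19 (0.396) and Nfil3 at -0.29 ± 0.087 (0.304). Groups did not overlap for 2 members, Nr1d1 and Nfil3, against 4.32% of all genes. The members' median was -0.040, against 0.011 for all genes. With arrays weighted by quality Nr1d1 passed at 6 h (0.79, limma adjusted p = 0.0184), the 1 setting of 17 in which it did.

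**Figure D1:**
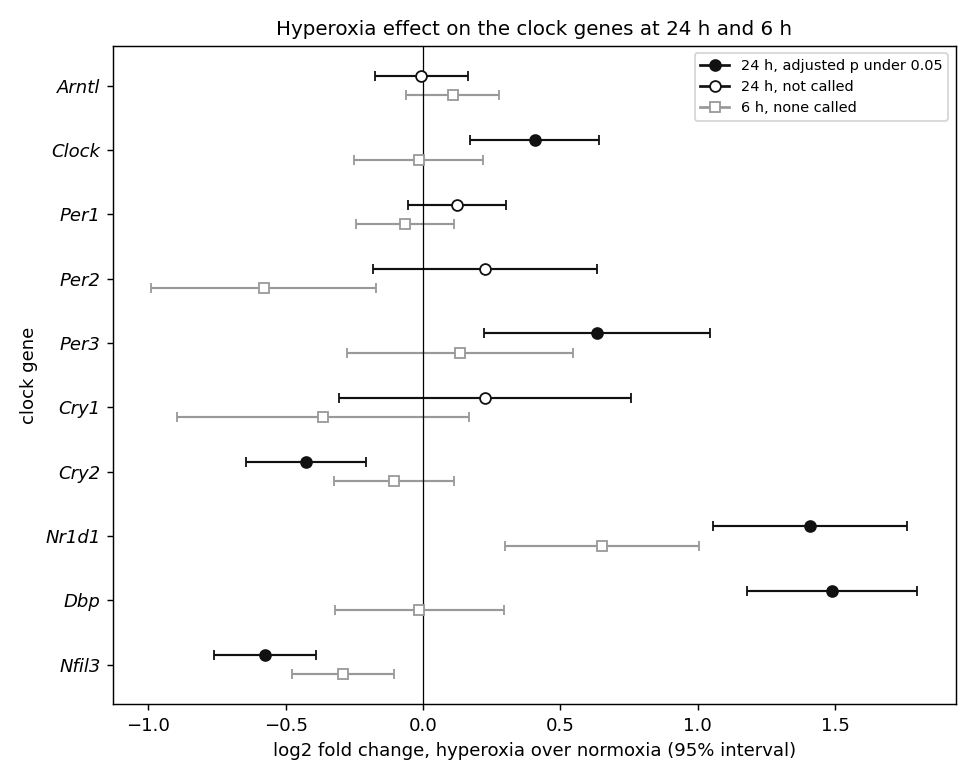
Log2 fold change of hyperoxia over normoxia for each of the 10 clock genes, at 24 h (circles, filled where limma's adjusted p was under 0.05) and at 6 h (grey squares), with 95% intervals from the fit over 16 arrays. Dbp and Nr1d1 lie near 1.5 on the right at 24 h, Nfil3 and Cry2 lie left of 0, and the 24 h intervals of Arntl, Per1, Per2 and Cry1 include 0.

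Of the activator genes, Clock rose at 24 h and Arntl did not pass. Clock, the DNA-binding partner of ARNTL, had log2 levels of 0.96, 0.96, 1.14 and 1.07 on the hyperoxia arrays at 24 h, against 0.64, 0.77, 0.56 and 0.54 on the normoxia arrays. Every hyperoxia array was above every normoxia array. The difference was 0.41 ± 0.11 (log2 fold change ± SE, 1.33-fold higher, limma adjusted p = 0.0119), and it stayed past the threshold in all 17 alternative settings. At 6 h Clock stood at 0.96, 0.82, 1.21 and 0.57 in hyperoxia and 0.79, 0.95, 0.88 and 0.99 in normoxia. Hyperoxia replicates 3 and 4 were the highest and the lowest of these 8 arrays, so the groups overlapped fully (-0.015 ± 0.11, adjusted p = 0.999).

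Arntl, for the other activator of the pair, averaged 1.63 ± 0.11 in hyperoxia and 1.64 ± 0.12 in normoxia at 24 h (SD, n = 4 each), and 1.35 ± 0.068 in hyperoxia and 1.25 ± 0.11 in normoxia at 6 h. Its 24 h difference had a 95% interval of -0.18 to 0.16 on the log2 scale and its 6 h difference one of -0.061 to 0.28. The 24 h differences of Dbp and Nr1d1 lie outside both intervals, though a difference between genes was not tested.

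Among the Period genes, which encode the repressors that build up and close the loop, Per3 was the 1 member called. At 24 h it had levels of -4.73, -4.51, -4.39 and -3.99 in hyperoxia, against -4.74, -5.33, -5.27 and -4.81 in normoxia. Hyperoxia replicate 1 lay just above normoxia replicate 1, the highest of its group, and the other hyperoxia arrays lay further up. The difference was 0.63 ± 0.19 (1.55-fold, limma adjusted p = 0.0231). Its probe was dim, well above background on 14 of 16 arrays. With another background correction (normexp) the difference was 0.038 (adjusted p = 0.791), and the call also ended without normoxia replicate 2 (0.54, adjusted p = 0.0711) or 3 (0.55, 0.0675) or hyperoxia replicate 3 (0.63, 0.0502) or 4 (0.49, 0.0759).

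Per2 did not pass at either time, and its differences had opposite signs. At 24 h it averaged -2.63 ± 0.16 in hyperoxia and -2.85 ± 0.16 in normoxia, a difference of 0.23 ± 0.19 (limma adjusted p = 0.427). At 6 h its levels were -3.21, -2.98, -3.73 and -3.39 in hyperoxia, against -2.93, -2.85, -2.13 and -3.09 in normoxia. The widest gap came from the third replicates, hyperoxia replicate 3 being the lowest and normoxia replicate 3 the highest of these 8 arrays. Without normoxia replicate 3 the 6 h difference was -0.37 in place of -0.58.

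Per1 averaged 1.93 ± 0.11 in hyperoxia and 1.80 ± 0.13 in normoxia at 24 h, with an interval of -0.054 to 0.30 for the log2 difference. At 6 h it averaged 1.29 ± 0.079 in hyperoxia and 1.36 ± 0.12 in normoxia, with an interval of -0.24 to 0.11. Neither difference passed (limma adjusted p = 0.303 at 24 h and 0.96 at 6 h).

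The Cryptochrome genes encode the partners of the PER proteins and the stronger repressors of the pair. Cry2 had levels of 1.41, 1.23, 1.35 and 1.18 in hyperoxia at 24 h, against 1.82, 1.7, 1.71 and 1.64 in normoxia. All hyperoxia arrays lay below all normoxia arrays, and the differences between same-numbered arrays were -0.41, -0.48, -0.36 and -0.45. The log2 fold change was -0.42 ± 0.10 (1.34-fold lower, limma adjusted p = 0.00564). A dimmer probe, which the annotation gives to another Cry2 transcript record, differed by -0.091 (adjusted p = 0.546), so the fall is that of 1 of 2 probes. At 6 h the brighter probe overlapped between the groups (-0.10 ± 0.10, adjusted p = 0.919).

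Cry1 averaged -1.95 ± 0.11 in hyperoxia and -2.18 ± 0.12 in normoxia at 24 h (0.22 ± 0.25, limma adjusted p = 0.556). At 6 h its levels were -2.32, -2.51, -2.26 and -2.49 in hyperoxia, against -2.45, -2.22, -2.49 and -0.96 in normoxia. Normoxia replicate 4 stood far above the other arrays of its group. Without it the 6 h difference was -0.0070, against -0.36 with it.

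**Figure D2:**
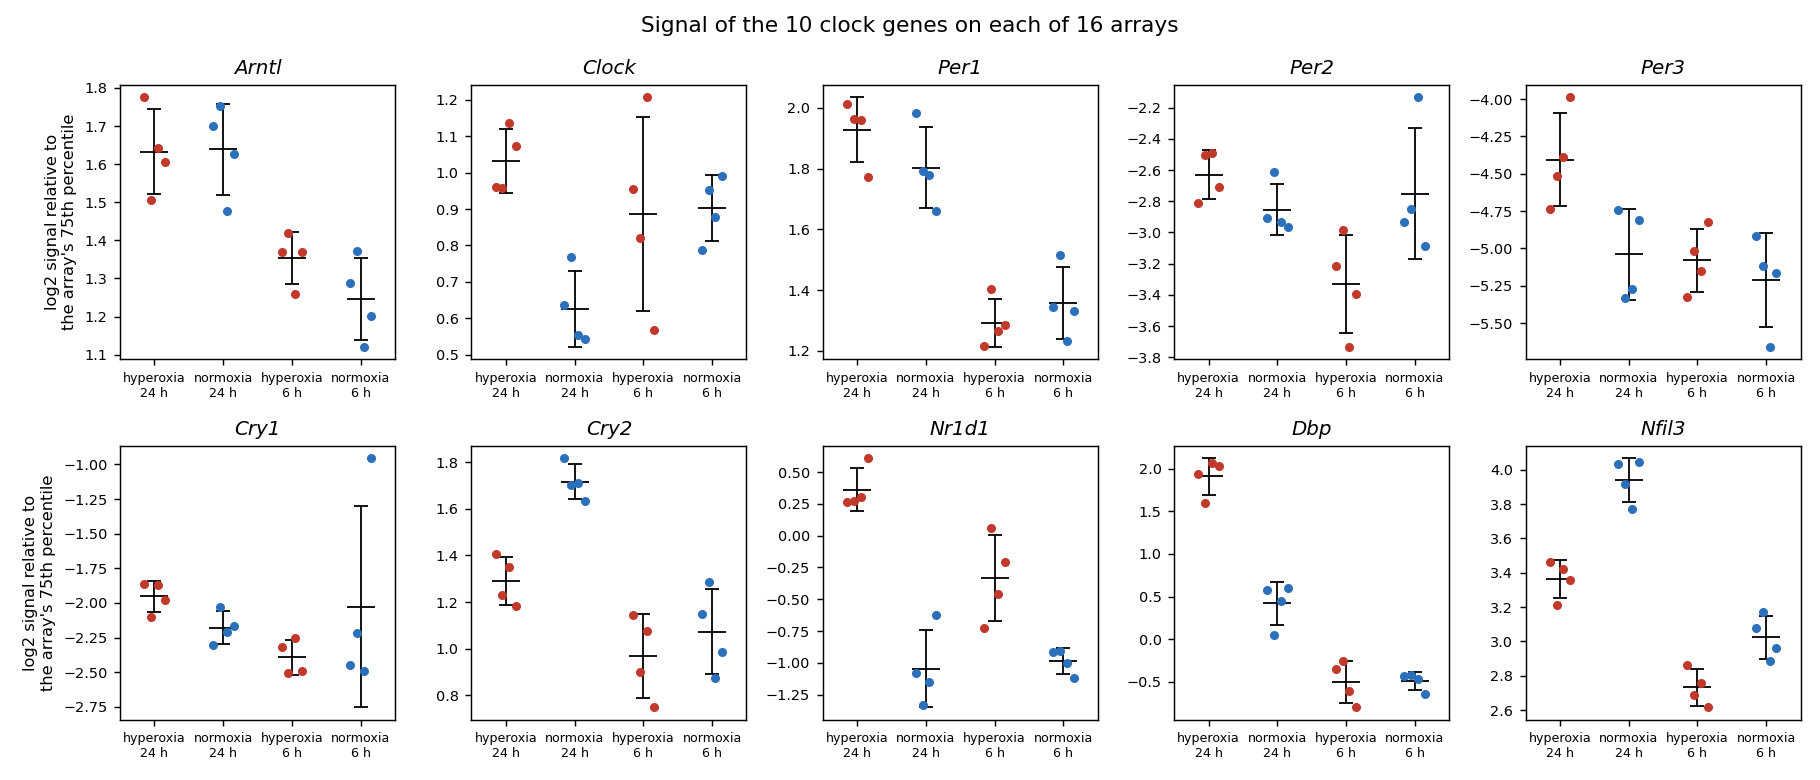
Log2 signal of each of the 10 clock genes relative to the array's 75th percentile (vertical axes, which differ between panels) on every array of the 4 groups (red hyperoxia, blue normoxia), with the mean and SD as bars. The hyperoxia arrays at 24 h do not overlap the normoxia arrays for Dbp, Nr1d1, Clock and, by a small gap, Per3, which lie above them, nor for Nfil3 and Cry2, which lie below them.

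Nr1d1, the nuclear receptor that links the clock to metabolism and inflammation, had levels of 0.26, 0.27, 0.30 and 0.61 in hyperoxia at 24 h, against -1.08, -1.33, -1.15 and -0.62 in normoxia. No array of one group came near the other, and replicate 4 was the highest in both groups. The difference was 1.41 ± 0.16 (limma adjusted p = 1.62e-05), and 2.26% of all genes tested had a larger one in either direction. At 6 h Nr1d1 stood at -0.73, 0.058, -0.45 and -0.21 in hyperoxia, against -0.91, -0.91, -1.0 and -1.12 in normoxia. The hyperoxia arrays were all higher but spread more widely, the lowest being replicate 1 and the highest replicate 2. Differences between same-numbered arrays were 1.34, 1.61, 1.46 and 1.23 at 24 h and 0.19, 0.96, 0.55 and 0.91 at 6 h. The annotated coordinates of the probe (mm9 chr11:98630526-98631028, minus strand) span 503 bases of the genome, where those of the other members span 60 bases. This span is counted on the genome and is not a probe length.

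Dbp, the D-box activator, had the largest rise of the 10 members. At 24 h it had levels of 1.94, 1.60, 2.06 and 2.03 in hyperoxia, against 0.58, 0.053, 0.45 and 0.60 in normoxia. The lowest hyperoxia array was about 1 log2 unit above the highest normoxia array, and replicate 2 was the lowest in both groups. Differences between same-numbered arrays were 1.36, 1.55, 1.62 and 1.43. The log2 fold change was 1.49 ± 0.14 (limma adjusted p = 2.56e-06), and 1.88% of all genes tested had a larger one. A second probe (mm9 chr7:52965461-52965520, plus strand) near the first (mm9 chr7:52965322-52965381) gave 1.40 (adjusted p = 1.3e-06). At 6 h Dbp averaged -0.50 ± 0.25 in hyperoxia and -0.49 ± 0.10 in normoxia, with overlapping arrays and an interval of -0.32 to 0.30 for the difference.

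Nfil3, the D-box repressor, moved opposite to Dbp with oxygen. At 24 h its levels were 3.46, 3.21, 3.42 and 3.36 in hyperoxia, against 4.03, 3.92, 3.77 and 4.04 in normoxia. All hyperoxia arrays were lower, with differences of -0.57, -0.70, -0.35 and -0.68 between same-numbered arrays. The difference was -0.58 ± 0.087 (1.49-fold lower, limma adjusted p = 0.000159). At 6 h the levels were 2.87, 2.69, 2.76 and 2.62 in hyperoxia, against 3.08, 3.17, 2.89 and 2.96 in normoxia. The hyperoxia arrays were again all lower, the highest of them by a small gap, and the difference of -0.29 ± 0.087 did not pass (adjusted p = 0.304).

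Over culture time, which cannot be told apart from slide and scan, several members rose with either oxygen level, Dbp the most in hyperoxia. In hyperoxia 8 of 10 were higher at 24 h than at 6 h and 0 lower, where 25.0% of all genes were higher and 27.4% lower. In normoxia 5 were higher and 0 lower, where 20.6% of all genes were higher and 23.5% lower. Dbp rose in both, by 2.41 ± 0.14 in hyperoxia (5.32-fold) and 0.91 ± 0.14 in normoxia (1.88-fold; limma adjusted p = 1.40e-08 and 0.000251). Nfil3 rose as well, by 0.63 ± 0.087 in hyperoxia and 0.92 ± 0.087 in normoxia, so its 24 h level in hyperoxia was still above both 6 h groups. In hyperoxia Cry2 rose by 0.32 ± 0.10, Arntl by 0.28 ± 0.079 and Per1 by 0.63 ± 0.083, and in normoxia Cry2 by 0.64 ± 0.10, Arntl by 0.39 ± 0.079 and Per1 by 0.45 ± 0.083. The dimmer Cry2 probe gave 0.30 in normoxia (adjusted p = 0.0238). The rise of Cry2 in hyperoxia ended with the dimmer probe (0.16, adjusted p = 0.175), with normexp (0.22, 0.0768) and without hyperoxia 6 h replicate 4 (0.25, 0.0559).

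Nr1d1, Per2 and Per3 passed over time in hyperoxia and not in normoxia, and the test of that difference follows with the change of the hyperoxia effect, to which it is equal. Nr1d1 differed by 0.70 ± 0.16 in hyperoxia (limma adjusted p = 0.00291) and -0.060 ± 0.16 in normoxia (0.788). Per2 differed by 0.70 ± 0.19 in hyperoxia (0.00695) and -0.10 ± 0.19 in normoxia (0.681). Per3 differed by 0.67 ± 0.19 in hyperoxia (0.00929) and 0.17 ± 0.19 in normoxia (0.481). With normexp Per3 passed in normoxia too (0.47, adjusted p = 0.000662). Clock differed by 0.14 in hyperoxia (adjusted p = 0.284) and -0.28 in normoxia (0.0528). Cry1 differed by 0.44 in hyperoxia (0.152) and -0.15 in normoxia (0.645), or 0.21 in normoxia without 6 h replicate 4. Clock was lower at 24 h in normoxia past the threshold in 6 settings: only the 2 groups compared in the fit (-0.28, adjusted p = 0.0179), quantile normalization (-0.31, 0.0278), the authors' deposited values (-0.31, 0.0278), array weights (-0.31, 0.00965), and without normoxia 24 h replicate 2 (-0.32, 0.0419) or 6 h replicate 1 (-0.32, 0.0497). In hyperoxia it was higher past the threshold with array weights (0.28, 0.0215) or without 6 h replicate 3 (0.25, 0.0358). Cry1 passed in hyperoxia with only the 2 groups compared in the fit (0.44, 0.0056).

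The 2 probes of Per1 went opposite ways over time. The brighter (mm9 chr11:68923364-68923423) was higher at 24 h by the values above, while the dimmer (mm9 chr11:68919895-68919954), annotated to another transcript record, was lower by 0.74 in hyperoxia and 0.85 in normoxia on the log2 scale. Its mean was -4.89 ± 0.28 in hyperoxia and -5.01 ± 0.18 in normoxia at 24 h, and -4.15 ± 0.12 in hyperoxia and -4.16 ± 0.10 in normoxia at 6 h. It cleared background on 13 of the 16 arrays: all at 6 h, and at 24 h 3 of 4 in hyperoxia and 2 of 4 in normoxia. Its 24 h values thus lay near background. In the hyperoxia comparisons neither probe passed.

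**Figure D3:**
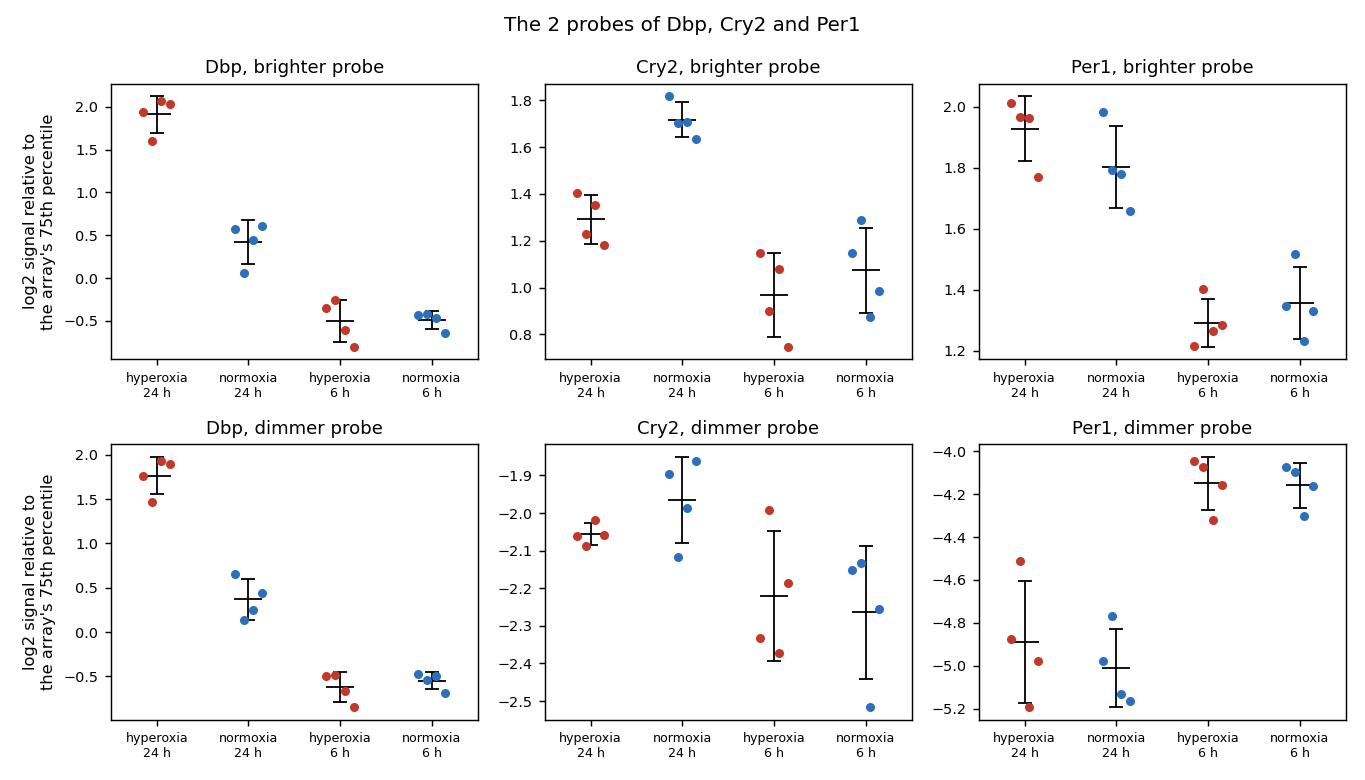
Log2 signal relative to the array's 75th percentile (vertical axes, which differ between panels) for the brighter (top) and dimmer (bottom) probe of Dbp, Cry2 and Per1 on every array, red for hyperoxia and blue for normoxia, with means and SD. Both Dbp probes show a gap between hyperoxia and normoxia at 24 h, such a gap is seen with 1 Cry2 probe, and the Per1 probes differ in direction over time.

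The hyperoxia effect itself changed with time for Dbp and Nr1d1. Tested as the difference between the 24 h effect and the 6 h effect, Dbp gave 1.50 ± 0.20 (limma adjusted p = 0.000227), in all 25 alternative settings past the threshold. Nr1d1 gave 0.76 ± 0.23 (adjusted p = 0.0484), and lost the call in 20 of 24 settings, with values of 0.60 to 0.90 over all 24. Of the fits with 1 array left out 14 lost it, all but those without normoxia 24 h replicate 4 or hyperoxia 6 h replicate 2. These were 2 members higher and 0 lower, where 6.62% of all genes were higher and 5.63% lower. Per2 gave 0.80 ± 0.27 (adjusted p = 0.0686) and Clock 0.42 ± 0.15 (0.0968). Per2 passed without normoxia 6 h replicate 4 (0.92, adjusted p = 0.0484) or hyperoxia 6 h replicate 2 (0.92, 0.0421), and Clock without hyperoxia 6 h replicate 3 (0.53, 0.0113) or with array weights (0.59, 0.00557). Per3 gave 0.50 ± 0.27 (0.279). Cry2 and Nfil3 gave -0.32 ± 0.14 and -0.28 ± 0.12 (0.179 and 0.163), so their 24 h and 6 h effects were not shown to differ.

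Other genes of the clock were followed in 3 lists, chosen with earlier results of these data known. Their counts are set beside the shares of all genes for scale, not as a test of the lists. Among 11 tested paralogues and partners of the members, 2 rose and 2 fell at 24 h, with a median of 0.011, where 15.5% of all genes rose and 12.8% fell. Tef, a D-box activator of the same family as Dbp, had levels of 3.61, 3.64, 3.66 and 3.58 in hyperoxia, against 2.77, 2.74, 3.01 and 2.83 in normoxia. Its groups lay well apart (0.78 ± 0.098, 1.72-fold, limma adjusted p = 2.99e-05). Ciart, whose product represses CLOCK and ARNTL, had -2.26, -3.07, -2.24 and -2.48 in hyperoxia, against -1.68, -1.63, -1.80 and -1.81 in normoxia. All its hyperoxia arrays were lower (-0.78 ± 0.17, adjusted p = 0.00243). The brightest member of the list that did not pass, Bhlhe40, which encodes a repressor at E-boxes, averaged 3.14 ± 0.12 in hyperoxia and 3.14 ± 0.32 in normoxia.

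Timeless and Tipin had the largest falls of the listed clock genes. Timeless, listed with the partners, was 2.99-fold lower (-1.58 ± 0.099, limma adjusted p = 2.96e-08). Its levels were -0.36, -0.52, -0.45 and -0.57 in hyperoxia, against 1.14, 1.10, 0.83 and 1.36 in normoxia. Tipin, listed with the regulators of PER and CRY protein, was 2.18-fold lower (-1.12 ± 0.074, adjusted p = 5.30e-08), at 2.42, 2.43, 2.31 and 2.14 in hyperoxia, against 3.50, 3.46, 3.37 and 3.46 in normoxia. In mammals their proteins form a complex that protects the DNA replication fork, and both genes stood beside the fall of dividing-cell genes given above, whose part in them was not tested. Of 12 regulators, Tipin was the 1 that fell and 1 other rose, where 12.8% of all genes fell and 15.5% rose, with a median of 0.051. Rack1, the brightest that did not pass, averaged 8.69 ± 0.043 in hyperoxia and 8.77 ± 0.11 in normoxia.

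Of 12 rhythmic output genes 5 fell and 1 rose at 24 h, where 12.8% of all genes fell and 15.5% rose, with a median of -0.25 against 0.0051 for all genes. Mthfd1l, which encodes a mitochondrial enzyme of one-carbon metabolism, was 1.94-fold lower (-0.96 ± 0.081, limma adjusted p = 6.61e-07), at 2.79, 2.41, 2.63 and 2.63 in hyperoxia, against 3.65, 3.59, 3.52 and 3.53 in normoxia. Fkbp5, a glucocorticoid-induced chaperone gene, was 1.54-fold lower (-0.62 ± 0.10, adjusted p = 0.000368), at 2.40, 2.10, 2.06 and 2.43 in hyperoxia, against 2.94, 2.79, 2.71 and 3.03 in normoxia. For both genes all hyperoxia arrays lay below all normoxia arrays. Por, for the electron donor of cytochrome P450 enzymes and the brightest that did not pass, was at 0.25 ± 0.098 (adjusted p = 0.0682). At 6 h 0 genes of the 3 lists passed limma's test, with 2 of 35 at an unadjusted p under 0.05, against 0.236% of all genes that rose, 0.0905% that fell and 7.38% at that unadjusted p.

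**Figure D4:**
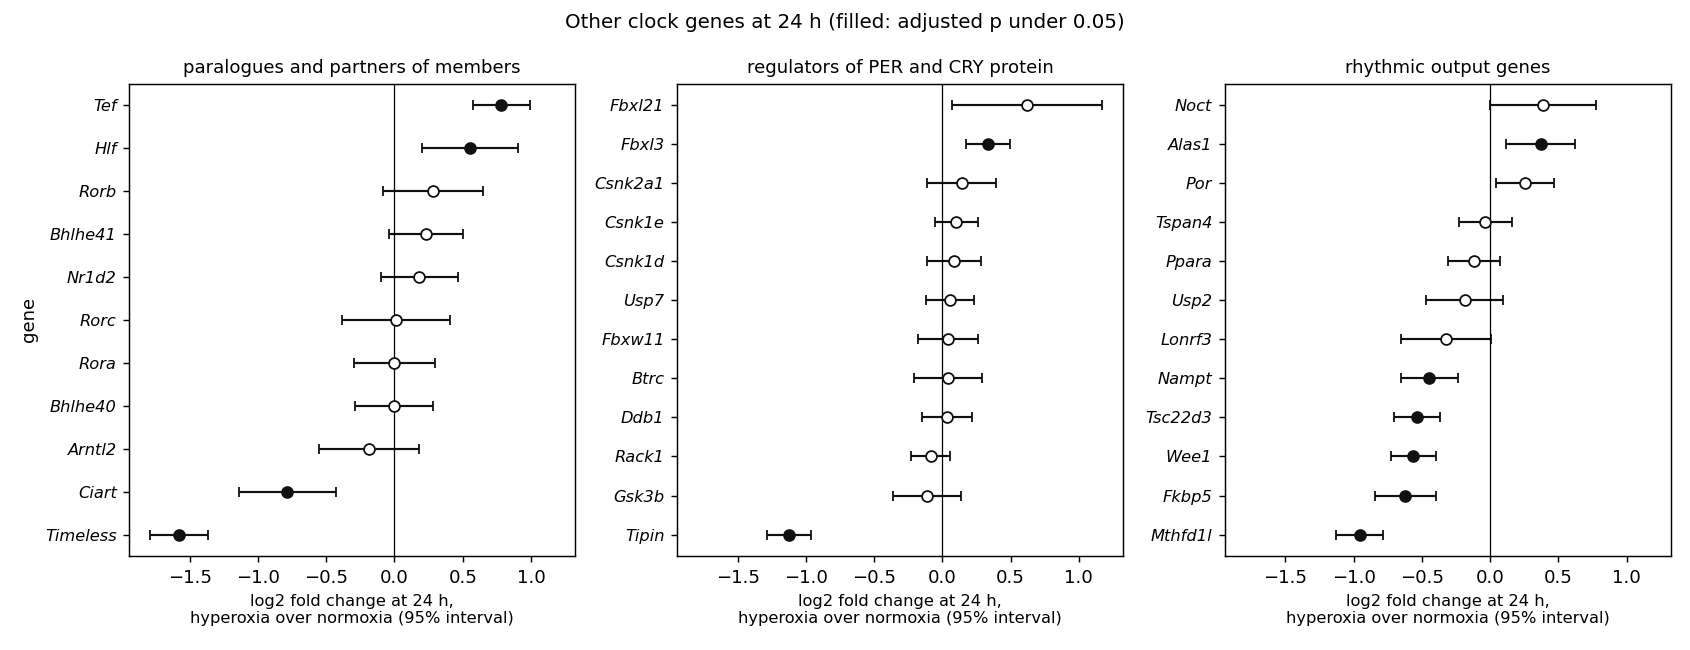
Log2 fold change of hyperoxia over normoxia at 24 h (horizontal axis, with 95% intervals) for 35 other clock genes in 3 lists, ordered by value and filled where limma's adjusted p was under 0.05. Tef stands at the top of the paralogues, and Timeless, Tipin and Mthfd1l stand at the bottom of their lists.

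The genes whose 4 group means, each taken about the gene's own mean, were most like a member's were looked for among 17291 tested genes with a RefSeq symbol. For Dbp these were H1f2, a linker histone gene (root mean square difference 0.059 on the log2 scale), and Dnm3, a dynamin gene (0.080). For Nr1d1 they were Tnfrsf18 (0.047) and 1500026H17Rik (0.056), and for Per3 Spred3 and Rpain (0.016 each). For Nfil3 they were Map3k12 (0.025) and Trim46 (0.045). Likeness was measured over 4 points only. The members were left out of the genes searched, so none of them could appear. No gene of the other clock gene lists was among these 8, but those lists are a very small part of the 17291 genes searched.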

How the data were processed

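Cy3-labelled cRNA was made from total RNA, per the labels' protocols. Scanner files were written by Agilent Feature Extraction 10.7.3.1 (per the submitters' processing notes), and the processed signal the authors deposited in them is an intensity that, per the file headers, had its background subtracted array by array and was not normalized between arrays. A table of log2 values that the authors deposited for the whole series, with a normalization not given in the sources used here, served as an alternative. Here the log2 processed signal was shifted so that the 75th percentile of non-control probes was 0 on each array. The brightest probe stood for a gene, which was tested where at least 3 of a group's 4 arrays had that probe well above background. Comparisons used limma 3.58.1 in R 4.3.3, 1 mean per group over 16 arrays (12 residual and 2.23 prior degrees of freedom), two-sided, with Benjamini-Hochberg adjustment over 25408 genes and a threshold of 0.05. The code was tested on simulated data. Probe positions are those of the array annotation (mm9). Names were updated through RefSeq (GRCm38.p6), and the 10 members kept the array's own names. The number of arrays, 4 per group, limits the precision.

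All members were described. Of the other clock genes, those called in a hyperoxia comparison were named, up to 6 by size of change, and the brightest uncalled gene of each list was given as a value. Likeness was given for the 4 members with the largest 24 h change. The members and lists were chosen with earlier results of these data known. Alternatives were normexp background correction (offset 50), quantile normalization, the deposited table, no filter, the mean of all probes, another probe, array weights, fits to 2 groups, replicate blocks and each array left out. They were run for the 6 named other clock genes too, a choice made after seeing the data. At 24 h the residuals of same-numbered hyperoxia and normoxia arrays had correlations of 0.246, 0.345, 0.244 and 0.261. Each was over the limit of 0.1, so the numbers were taken to pair the 24 h arrays. Because the numbers are slide columns, paired samples and a shared column cannot be told apart. The main fit did not use the pairing, which entered only through the replicate blocks among the alternatives. At 6 h the correlations were 0.252, 0.254, 0.355 and 0.0863. Those of replicates 1 to 3 were as high as at 24 h and that of replicate 4 was under the limit. The 6 h arrays were therefore not taken as paired, though whether they were was not settled.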

Additional observations from a re-analysis of the deposited data

Results flagged for a closer look

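Within the groups of 4 arrays, 16 named genes gave 64 sets of values, of which chance alone is expected to mark about 1 in 20 for a sample far from the others. The 1 marked was Nr1d1 in hyperoxia at 24 h, where replicate 4 stood at 0.61 and the other arrays at 0.26 to 0.30. Without it the 24 h difference of Nr1d1 kept its call.

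The hyperoxia effect at 24 h differed from that at 6 h, by limma's test of the difference, for 2 members and 4 other named clock genes. The values (24 h effect minus 6 h effect, log2) were 1.50 for Dbp, 0.76 for Nr1d1 and 0.50 for Tef, and -1.43 for Timeless, -1.13 for Tipin and -0.94 for Mthfd1l. Those of Nr1d1 (adjusted p = 0.0484) and Tef (0.0283) were nearest to the threshold. That of Tef lost its call without hyperoxia 24 h replicate 2 or 3, normoxia 24 h replicate 1 or 2, hyperoxia 6 h replicate 2 or 4, or normoxia 6 h replicate 1 or 2, with values of 0.45 to 0.50.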

How the results depend on the processing

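At 24 h the calls of Dbp, Nr1d1, Nfil3 and Clock held in every alternative run, with log2 fold changes of 1.37 to 1.59, 1.24 to 1.55, -0.63 to -0.52 and 0.37 to 0.45. Calls of Per3 and Cry2 ended in the settings given in the report. The count of members called at 24 h was 5 to 6 with 1 array left out, that at 6 h 0 and, with array weights, 1. For the difference between the effects the count was 1 in place of 2 with quantile normalization, the deposited table, no filter, the mean of all probes and the replicate block over both times, and 1 to 3 with 1 array left out. A replicate block within each time kept all 6 calls at 24 h and changed no other call of a member, while Tef lost its difference (0.50, adjusted p = 0.0594) and Fkbp5 gained it (-0.46, 0.0283). For the other clock genes the 24 h count was 10 to 16 over all alternatives, against 12.

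Signs turned mostly for values near 0. At 24 h Arntl was 0.049 with normexp and 0.012 with quantile normalization or the deposited table. At 6 h the other probes of Per1 and Cry2 gave 0.0090 and 0.044. Over time in normoxia Per2 gave 0.070 with normexp, 0.011 with quantile normalization, 0.010 with the deposited table and 0.016 with array weights. There normexp also gave 0.020 for Cry1 and 0.092 for Nr1d1. Per1 over time gave -0.20 in normoxia and -0.052 in hyperoxia as the mean of its probes, and -0.85 and -0.74 with its other probe. The difference of Per3 was -0.015 with normexp. With 1 array left out the 6 h values ran from -0.12 to 0.091 for Clock, from -0.013 to 0.23 for Per3 and from -0.093 to 0.086 for Dbp, and the 24 h value of Arntl from -0.060 to 0.036. Over time in normoxia they ran from -0.22 to 0.10 for Per2, from -0.30 to 0.21 for Cry1 and from -0.20 to 0.036 for Nr1d1. The cause of these turns was not tested. In all, 1068 recomputed gene values kept direction and side of the threshold, 38 lost a call, 23 gained one and 32 changed sign.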
